A study of Mus musculus with 4 samples.

Results

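The genes described here are 9 receptors, co-receptors, Gli transcription factors and feedback genes of the hedgehog pathway: Gli1, Gli2, Gli3, Ptch1, Smo, Hhip, Sufu, Boc and Cdon. They were taken by gene symbol from a table of 55401 genes, and each symbol matched 1 row. RNA-seq libraries came from hair follicle stem cells of C57BL/6 mice in anagen, when follicles grow. One group of mice was fed a high-fat diet (HFD) for 4 months and the other a normal diet (ND). Each diet had 2 libraries, and no genetic alteration is given for either. Age, the way the cells were isolated and the number of mice behind a library are not given in the labels, so p-values speak of the spread among 4 libraries alone, which may be technical. Positions are the deposited coordinates, and 99.4% of the table's identifiers found in GENCODE M21 (GRCm38) had the same ones there. Gli1 (ENSMUSG00000025407) lies at chr10:127329882-127341974, Ptch1 at chr13:63508328-63573598, Hhip at chr8:79965851-80058006, Gli2 at chr1:118834132-119053619 and Boc at chr16:44485049-44558897 on the minus strand. Gli3 lies at chr13:15463235-15730026, Smo at chr6:29735503-29761365, Sufu at chr19:46396896-46488804 and Cdon at chr9:35421128-35507652 on the plus strand. All 9 genes passed the filter on low counts, as did 14479 genes in all.

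Hedgehog ligands bind the receptor Patched 1 (Ptch1), which in the absence of ligand holds the membrane protein Smoothened (Smo) inactive. Released Smoothened acts through the primary cilium to free the Gli factors from their inhibitor Sufu, and Gli2 is the main activator, Gli3 mostly a repressor and Gli1 an amplifying activator. Gli1, Ptch1 and the ligand trap Hhip are themselves switched on by the pathway and are called target members below. The others are called non-target components, although the pathway can also act on the transcripts of Boc and Cdon. In skin, Sonic hedgehog drives the growth of the anagen follicle, and Gli1 marks hedgehog-responding cells in and next to the bulge, where stem cells of the follicle reside.

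Of the 9 genes 5 were lower in both HFD libraries than in both ND libraries, against 21.9% of all genes tested. The sequence before the start is shown for a target with that pattern (Ptch1), a target without it (Hhip) and a non-target with it (Gli2). Whether these sequences bear on that pattern was not tested. Each is the 250 bases before the RefSeq start (build GRCm38.p6, all on the minus strand, read 5′ to 3′). Capitals mark the closest matches, on either strand, to the Gli consensus GACCACCCA. The windows are chr13:63565736-63565985, chr8:80058009-80058258 and chr1:119053620-119053869.
Ptch1: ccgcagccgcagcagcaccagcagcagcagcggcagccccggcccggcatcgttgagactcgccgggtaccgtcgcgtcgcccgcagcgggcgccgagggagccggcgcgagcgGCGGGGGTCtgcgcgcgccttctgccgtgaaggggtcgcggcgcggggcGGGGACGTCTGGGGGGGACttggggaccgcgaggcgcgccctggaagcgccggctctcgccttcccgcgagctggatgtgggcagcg
Hhip: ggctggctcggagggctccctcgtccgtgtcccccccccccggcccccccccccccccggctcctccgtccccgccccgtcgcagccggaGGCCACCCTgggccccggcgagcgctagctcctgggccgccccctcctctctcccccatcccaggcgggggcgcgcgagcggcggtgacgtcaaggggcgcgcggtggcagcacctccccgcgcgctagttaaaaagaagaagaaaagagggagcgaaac
Gli2: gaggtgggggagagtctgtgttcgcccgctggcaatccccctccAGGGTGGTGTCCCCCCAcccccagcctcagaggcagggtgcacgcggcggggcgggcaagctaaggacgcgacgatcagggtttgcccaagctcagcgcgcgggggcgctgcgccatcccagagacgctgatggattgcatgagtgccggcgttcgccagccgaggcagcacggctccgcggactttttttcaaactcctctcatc
The RefSeq table held 7 of the 9 genes, without Gli1 and Boc. None of the 7 windows held the 9-base consensus exactly or with 1 mismatch, against 0.225% and 5.79% of 32851 windows of the same length. Hhip, Gli2 and Smo had a closest match with 2 mismatches, and 51.8% of all windows had one at least as close. The windows of these genes contained between 42.8% G and C for Cdon and 78.4% for Ptch1, against a median of 52.4% over all windows. The windows of Ptch1, Gli3 and Cdon lie inside the spans of those genes, and Ptch1 has several starts. No match says only that these letters are not in the window.

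Total counts were 8734246 and 8590570 in the HFD libraries and 9940848 and 9366856 in the ND libraries, and the 9 genes together took between 11213 and 22321 of them per library. Of 15 bulge markers 14 were tested, and Krt15, Krt5, Krt14, Sox9, Lhx2, Nfatc1, Lgr5, Cd34 and Postn were present in every library. Of the 14, 1 was called higher (Krt14, log2 fold change 0.70, edgeR adjusted p = 0.033) and 0 lower, against 1.12% and 0.228% of all genes tested. The list was split, as 8 of the 14 had a negative log2 fold change, against 49.9% of all genes tested, with a median of -0.12. At an unadjusted p under 0.05 in edgeR, 3 of them were lower and 4 higher. Across all genes 162 rose and 33 fell (edgeR, adjusted p under 0.05), or 132 and 65 when scaled to library totals only, and 88 and 3 when scaled to equal sums of TPM (abundance per length). The first ND library stood apart. Without it edgeR called 0 genes (1537 had an unadjusted p under 0.05, and 1922 did with all libraries kept), and without the second ND library it called 3.

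With the high-fat diet, Gli1 fell, and the other 8 genes did not pass the test. The log2 fold change was negative for 8 of the 9 genes, against 49.9% of all genes tested. Of the 9, 1 was called lower and 0 higher, against 0.228% and 1.12% of all genes tested. At an unadjusted p under 0.05, 5 of the 9 were lower, against 6.03%. Both HFD values lay below both ND values for 5 genes (Gli1, Ptch1, Gli2, Smo and Sufu), a separation that 21.9% of all genes tested show. Both lay above for 1 gene, Cdon, against 22.7%. The 5 genes held both targets and non-target components, so the separation did not follow that division.

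**Figure D1:**
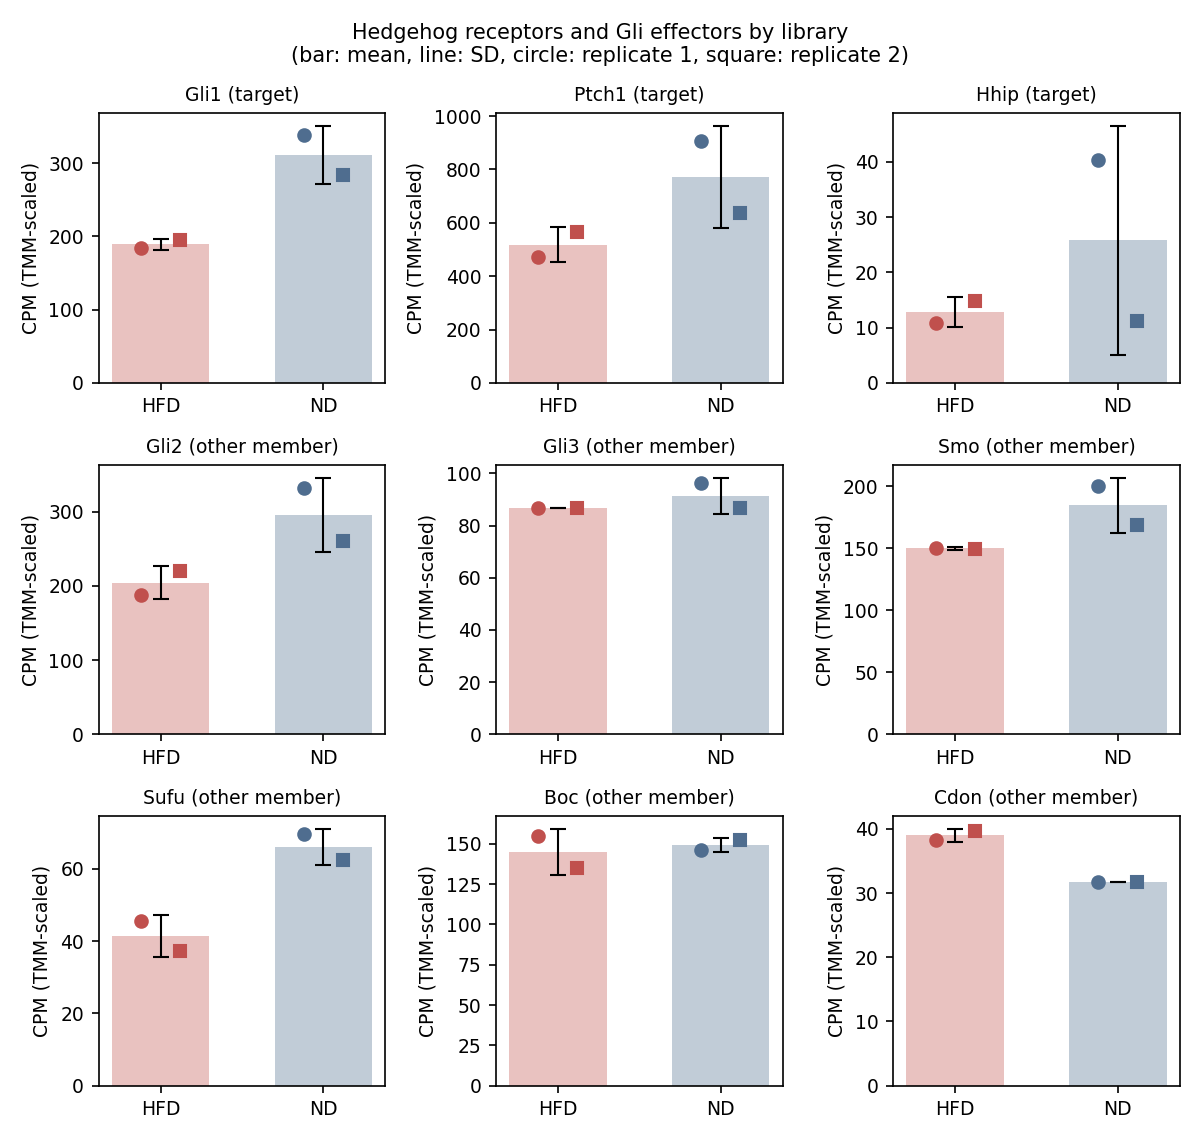
TMM-scaled CPM of each of the 9 genes in the HFD and ND libraries (bars are means, vertical lines SD, circles replicate 1, squares replicate 2; each y axis starts at 0). Gli1, Ptch1, Gli2, Smo and Sufu have both HFD points below both ND points, Hhip has 1 ND point far above the other 3, and Gli3 and Boc overlap.

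Among the target members, Gli1 stood at 184 and 195 CPM (counts relative to TMM-scaled library size) with HFD, against 339 and 284 CPM with ND. Both HFD values lay well below both ND values. Gli1 averaged 189.5 ± 7.58 CPM with HFD and 311 ± 39.2 CPM with ND (SD, n = 2 each), so that HFD libraries held 60.9% of the ND level. Its log2 fold change was -0.72 ± 0.13 (SE; edgeR adjusted p = 0.026). This call was lost without any 1 of the 4 libraries, with log2 fold changes from -0.85 without the second ND library to -0.58 without the first and edgeR adjusted p from 0.074 to 0.497. In bulk libraries, fewer Gli1-expressing cells and less Gli1 RNA per cell cannot be told apart.

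Ptch1, the ligand receptor, had the most counts of the 9 genes, at 471 and 564 CPM with HFD against 907 and 638 CPM with ND. The diets did not overlap, but the ND libraries lay 0.51 apart on the log2 scale, nearly as far as the diets. Ptch1 averaged 518 ± 66.0 CPM with HFD and 772 ± 190.2 CPM with ND (SD, n = 2 each). Its log2 fold change of -0.58 ± 0.16 (SE) did not pass (edgeR adjusted p = 0.131). It was -0.30 without the first ND library and -0.81 without the second.

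Hhip, a membrane protein that traps hedgehog ligands, had 92 and 124 counts with HFD against 417 and 107 with ND, or 10.9 and 14.8 CPM against 40.4 and 11.2 CPM. The first ND library alone was high, and the second lay between the HFD libraries. Its averages were 12.9 ± 2.74 CPM with HFD and 25.8 ± 20.7 CPM with ND (SD, n = 2 each), and its log2 fold change of -1.01 ± 0.46 (SE) did not pass (edgeR adjusted p = 0.381). Without the first ND library its log2 fold change was 0.20. The gap of 1.85 between its ND libraries on the log2 scale was larger in size than that of 95.2% of genes tested.

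Among the non-target components, Gli2, the main activator, stood at 188 and 219.6 CPM with HFD against 331 and 259.9 CPM with ND. Its diets did not overlap, with averages of 204 ± 22.2 CPM with HFD and 295 ± 50.4 CPM with ND (SD, n = 2 each). The log2 fold change of -0.54 ± 0.15 (SE) did not pass (edgeR adjusted p = 0.119), and it was -0.35 without the first ND library. Gli3 had 86.7 and 86.6 CPM with HFD against 96.4 and 86.5 CPM with ND. Its groups overlapped and its log2 fold change was -0.08 ± 0.14 (SE; edgeR adjusted p = 0.879).

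Sufu, which binds and restrains Gli proteins, stood at 45.6 and 37.3 CPM with HFD against 69.5 and 62.4 CPM with ND. The ND values lay close together and above both HFD values. Sufu averaged 41.4 ± 5.82 CPM with HFD and 66.0 ± 5.03 CPM with ND (SD, n = 2 each), and its log2 fold change of -0.67 ± 0.17 (SE) did not pass (edgeR adjusted p = 0.096). Between -0.82 and -0.53 when any 1 library was left out, it moved less than that of Ptch1. Smo, the signal transducer, had 151 and 149 CPM with HFD against 201 and 169 CPM with ND. The groups did not overlap, and the log2 fold change of -0.30 ± 0.13 (SE) did not pass (edgeR adjusted p = 0.362). It was -0.17 without the first ND library.

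Boc and Cdon are co-receptors of the immunoglobulin superfamily that present ligand to Patched, and in mouse embryos their transcripts are lowered by hedgehog signalling. Boc had 155 and 135 CPM with HFD against 146 and 153 CPM with ND. The ND values lay between the HFD values, and the log2 fold change was -0.04 ± 0.13 (SE; edgeR adjusted p = 0.936). Cdon had 38.3 and 39.7 CPM with HFD against 31.8 and 31.7 CPM with ND. Cdon was the 1 member with both HFD values above both ND values, and its log2 fold change of 0.30 ± 0.19 (SE) did not pass (edgeR adjusted p = 0.546).

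**Figure D2:**
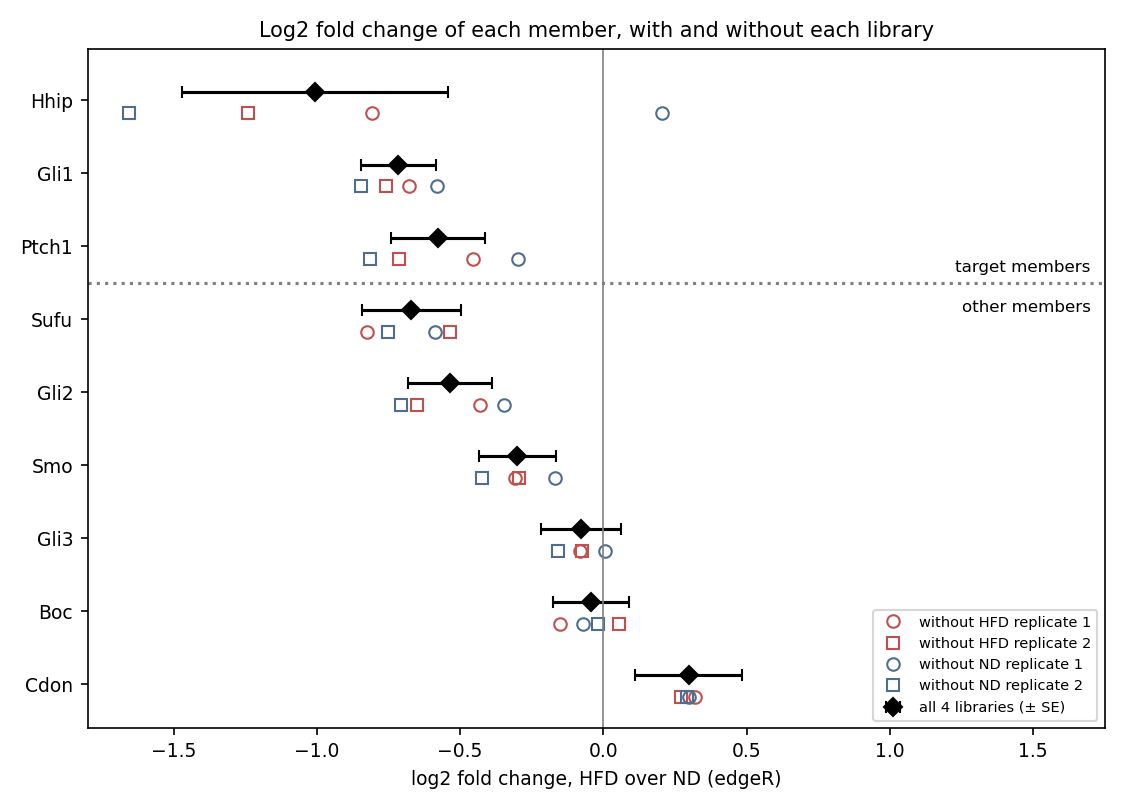
Log2 fold change of HFD over ND for each of the 9 genes (edgeR; diamonds with bars are values ± SE from all 4 libraries, open symbols the values with 1 library left out; targets above the dotted line). Hhip lies at -1.01 with all libraries and at 0.20 without the first ND library, whereas Gli1 stays between -0.85 and -0.58.

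Set against each other, the 3 targets had a median log2 fold change of -0.72 and the 6 non-target components one of -0.19, where the median over all genes tested was 0.00. The difference between these medians was -0.53 with all libraries and -0.18 without the first ND library. The non-target components include Boc at -0.04 and Cdon at 0.30, whose transcripts hedgehog signalling lowers in mouse embryos. They are thus not all genes that the pathway leaves alone, and the difference without Boc and Cdon was not computed. The divisions overlapped, since Sufu at -0.67 lay within the range of the targets, from -1.01 for Hhip to -0.58 for Ptch1, and Gli2 at -0.54 lay just outside it. Ratios within a library do not depend on the scaling of libraries. The ratio of Gli1 to Gli2 (FPKM, counts scaled to exonic length and to the library total) was 1.35 and 1.22 with HFD against 1.41 and 1.501 with ND. The diets did not overlap, and an exact two-sided permutation test gave p = 0.333, the smallest that 2 against 2 libraries allow. The ratio of Ptch1 to Smo was 1.24 and 1.497 with HFD against 1.79 and 1.497 with ND (exact two-sided permutation p = 0.667; p = 0.667 for both ratios after adjustment over the 2). The second ND library had the same ratio as the second HFD library.

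Per length, the 9 genes spanned a wide range. Gli1 led with a mean of 50.6 FPKM over the 4 libraries, followed by Ptch1 at 45.8, Gli2 at 36.6, Boc at 33.1 and Smo at 29.9 FPKM. A second tier held Gli3 at 9.30, Sufu at 7.04, Cdon at 4.58 and Hhip at 2.16 FPKM. Gli1 had 35.6 and 38.1 FPKM with HFD against 70.5 and 58.1 FPKM with ND, and Ptch1 had 32.03 and 38.82 FPKM with HFD against 66.4 and 46.0 FPKM with ND. These neighbours overlapped under both diets. Gli2 had 26.4 and 31.2 FPKM with HFD against 50.1 and 38.7 FPKM with ND, and Boc had 33.6 and 29.6 FPKM with HFD against 34.2 and 35.1 FPKM with ND. Gli2 and Boc overlapped with HFD, whereas with ND both Gli2 values lay above both Boc values. Among the lower 4, Sufu at 5.72 and 4.74 FPKM overlapped with Cdon at 4.79 and 5.02 FPKM with HFD, whereas with ND Sufu at 9.39 and 8.30 FPKM lay above Cdon at 4.28 and 4.21 FPKM.

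Within the Gli family, Gli1 made up 50.3% and 48.8% of the summed Gli FPKM with HFD, against 53.8% and 54.8% with ND. Gli2 made up 37.4% and 39.95% with HFD against 38.2% and 36.5% with ND. Gli3, the least abundant, made up 12.3% and 11.3% with HFD against 7.97% and 8.71% with ND. The HFD libraries thus had the lower Gli1 share and the higher Gli3 share without overlap between the diets, while the Gli2 share overlapped. The shares of a library add up to the whole, so the higher Gli3 share is not a result apart from the lower Gli1 share. Gli3 itself had a log2 fold change of -0.08 ± 0.14 (SE), and the shares were not tested.

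**Figure D3:**
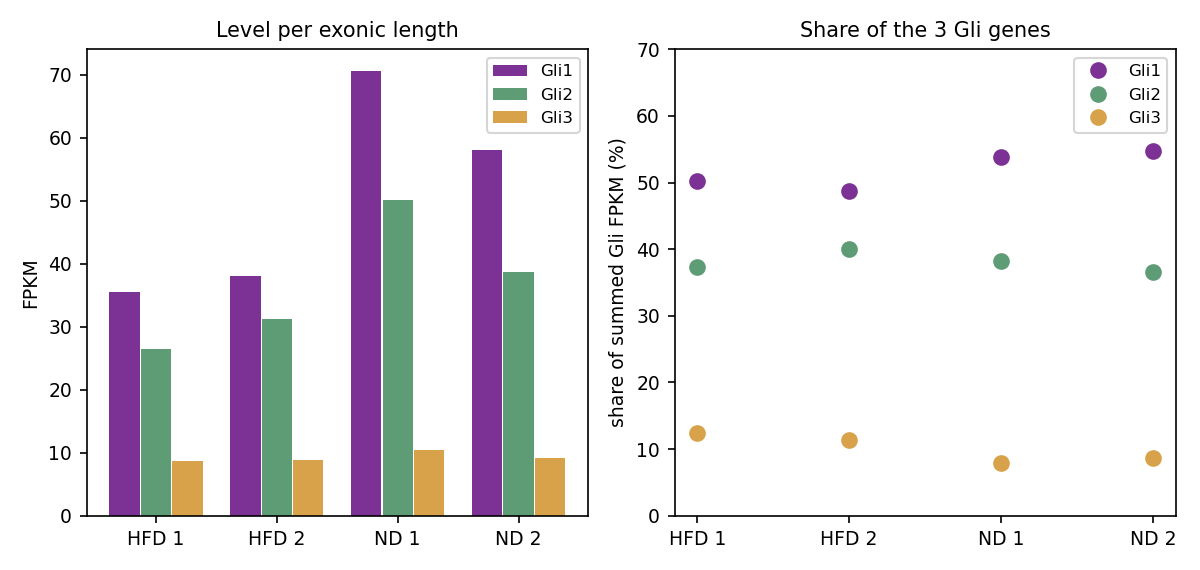
FPKM of Gli1, Gli2 and Gli3 in each library (left) and each gene's share of their summed FPKM in percent (right). Gli3 takes 12.3% and 11.3% in the HFD libraries against 7.97% and 8.71% in the ND libraries, while its own FPKM moves little.

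The rest of the pathway was read from 3 lists with 36 genes, of which 29 were tested. Of these, 19 had a negative log2 fold change, against 49.9% of all genes tested, and the median was -0.10.

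Among them Arrb1 rose. It encodes a beta-arrestin that can carry Smoothened to the cilium. Arrb1 had 29.7 and 28.5 CPM with HFD against 13.1 and 10.6 CPM with ND, a 2.45-fold change (log2 1.29 ± 0.24, SE; edgeR adjusted p = 0.029). This call was lost without any 1 library, with log2 fold changes from 1.15 to 1.45. Its relative Arrb2 had 14.2 and 11.4 CPM with HFD against 23.9 and 22.4 CPM with ND, and its log2 fold change was -0.85 ± 0.25 (SE), short of the threshold (edgeR adjusted p = 0.162). The beta-arrestins serve many receptors besides Smoothened. Kif7, a kinesin that organises the tip of the cilium, had a log2 fold change of -0.46 ± 0.17 (SE; edgeR adjusted p = 0.248). Gpr161, a ciliary receptor that restrains the pathway, had one of -0.41 ± 0.17 (SE; edgeR adjusted p = 0.323). That of Evc, a partner of Smoothened, was -0.17 ± 0.16 (SE; edgeR adjusted p = 0.704). Gas1, another co-receptor, was the most abundant of the co-receptor genes per length, with 73.0 and 58.9 FPKM with HFD against 79.9 and 73.9 FPKM with ND, and its log2 fold change was -0.13 ± 0.14 (SE; edgeR adjusted p = 0.744). It was 0.02 without the second HFD library and -0.31 without the first.

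Hedgehog ligands were close to the limit of detection. Shh had 2 and 0 counts with HFD against 0 and 0 with ND, and Ihh had 2 and 2 counts with HFD against 8 and 2 with ND. At this depth 3 counts are 0.356 and 0.358 CPM in the HFD libraries and 0.291 and 0.313 CPM in the ND libraries, for counting error only. Dhh had 18 and 5 counts with HFD against 16 and 18 with ND, and its log2 fold change of -0.32 ± 0.89 (SE; edgeR adjusted p = 0.930) was 0.32 without the second HFD library and -1.50 without the first. Of the 9 genes for ligands and their release, 4 were tested and 0 were called (edgeR, adjusted p under 0.05), with 1 at an unadjusted p under 0.05. That gene was Scube2, a secreted protein that helps to release hedgehog from cells, at 12.34 and 13.0004 CPM with HFD against 1.36 and 8.56 CPM with ND (log2 fold change 1.36 ± 0.60, SE; edgeR adjusted p = 0.361). Its log2 fold change was 0.57 without the first ND library and 3.21 without the second. Disp1, a transporter that releases hedgehog, had one of 0.48 ± 0.27 (SE; edgeR adjusted p = 0.482), and Hhat, which adds palmitate to hedgehog, one of -0.32 ± 0.52 (SE; edgeR adjusted p = 0.862). With 1 library left out, Disp1 lay between 0.30 without the first ND library and 0.68 without the second, and Hhat between -0.56 without the second HFD library and -0.10 without the first.

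Of 10 genes known as Gli targets from other tissues, 7 were tested, and 5 had a negative log2 fold change, against 49.9% of all genes tested. The median was -0.53 with all libraries and -0.28 without the first ND library. Mycn, a proto-oncogene, had 96.8 and 98.4 CPM with HFD against 145 and 137 CPM with ND (log2 fold change -0.53 ± 0.13, SE; edgeR adjusted p = 0.082). The cyclins Ccnd1 and Ccnd2, which drive entry into the cell cycle, had opposite signs and did not pass. Ccnd1 had 161 and 199 CPM with HFD against 354 and 237 CPM with ND (log2 fold change -0.71 ± 0.18, SE; edgeR adjusted p = 0.093), and was named after its values were seen. Its log2 fold change was -0.39 without the first ND library, and without the second HFD library it was -0.87 and passed (edgeR adjusted p = 0.046). Ccnd2 had 297 and 297 CPM with HFD against 191 and 214 CPM with ND (log2 fold change 0.55 ± 0.12, SE; edgeR adjusted p = 0.052).

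**Figure D4:**
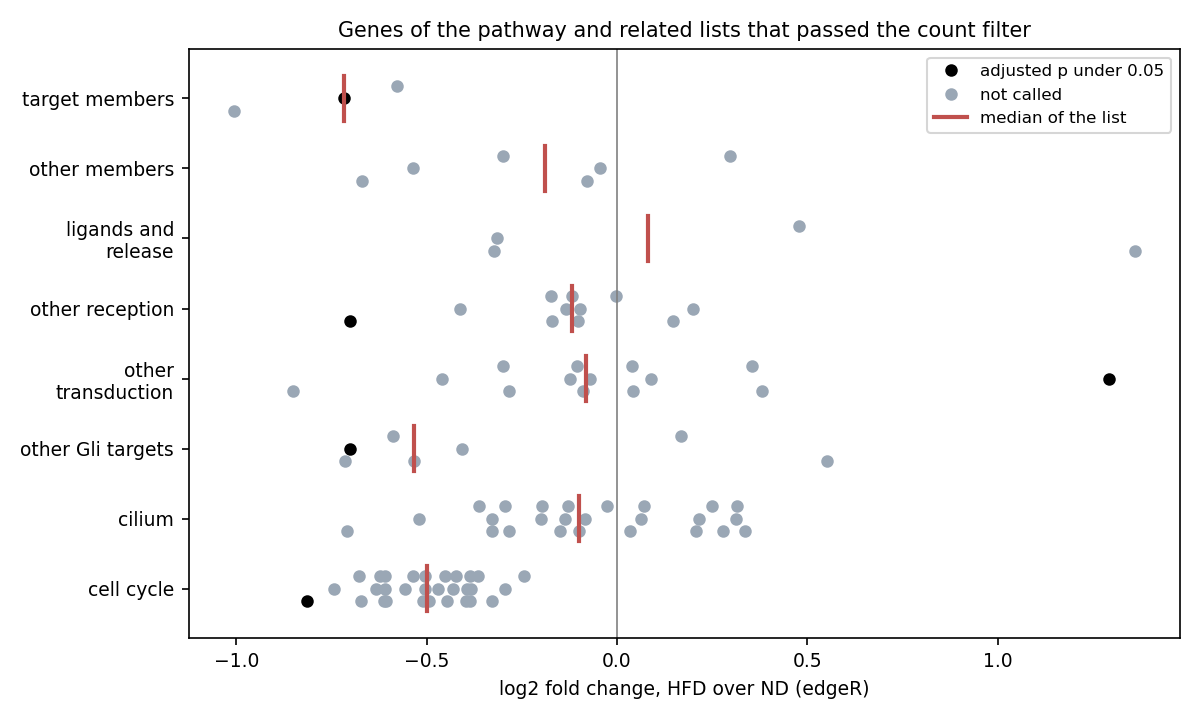
Log2 fold change of HFD over ND (edgeR) for each tested gene of the hedgehog lists, of further Gli targets, of cilium genes and of cell cycle genes (points; black if called at an adjusted p under 0.05; red lines are medians). Gli1, Arrb1 and Cdc20 are among the called genes, and the 30 cell cycle genes all lie below 0.

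Over the 4 libraries, the centred log2 CPM profile of Gli1 was compared with those of 3763 genes of at least 50 CPM by Euclidean distance. Among the 5 nearest were Gm8203, the dUTPase gene Dut and the histone genes H2bc14 and H3c2, at distances between 0.0742 and 0.0902, over 4 libraries only. Being chosen for nearness to Gli1, they are lower with HFD by that choice. Reads of histone genes can be split among near-identical copies, so values of H2bc14 and H3c2 are uncertain. Among the members Gli2 was nearest at 0.22, followed by Ptch1 at 0.26 and Sufu at 0.27, and Hhip was farthest at 1.15.

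The ND libraries differed from each other in the direction of the diets. The first ND library was above the second for 8 of the 9 genes, against 49.8% of all genes tested. Gli1, Gli2 and Ptch1 shared an order, with the first ND library highest, then the second ND, the second HFD and the first HFD library, which 6.99% of all genes tested show. Summed over 30 cell cycle genes, expression was 4975 and 5279 CPM with HFD against 8221 and 5781 CPM with ND, which is the same order. All 30 had negative log2 fold changes, against 49.9% of all genes tested, and 28 did without the first ND library. Among the 30, 1 was called lower and 0 higher, against 0.228% and 1.12% of all genes tested. The called gene was Cdc20, needed for chromosomes to separate in mitosis, at 63.7 and 56.5 CPM with HFD against 116 and 95.4 CPM with ND. The median of the list was -0.50, and -0.25 without the first ND library. Suprabasal epidermal genes summed to 4137 and 5131 CPM with HFD against 1295 and 3022 CPM with ND. Of 11 tested 4 were called higher (Krt10, Krtdap, Dsg1a and Krt2) and 1 lower (Flg), against 1.12% and 0.228% of all genes tested. The part of cell cycle genes and of suprabasal genes in the values of Gli1, Ptch1 and Gli2 was not tested.

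**Figure D5:**
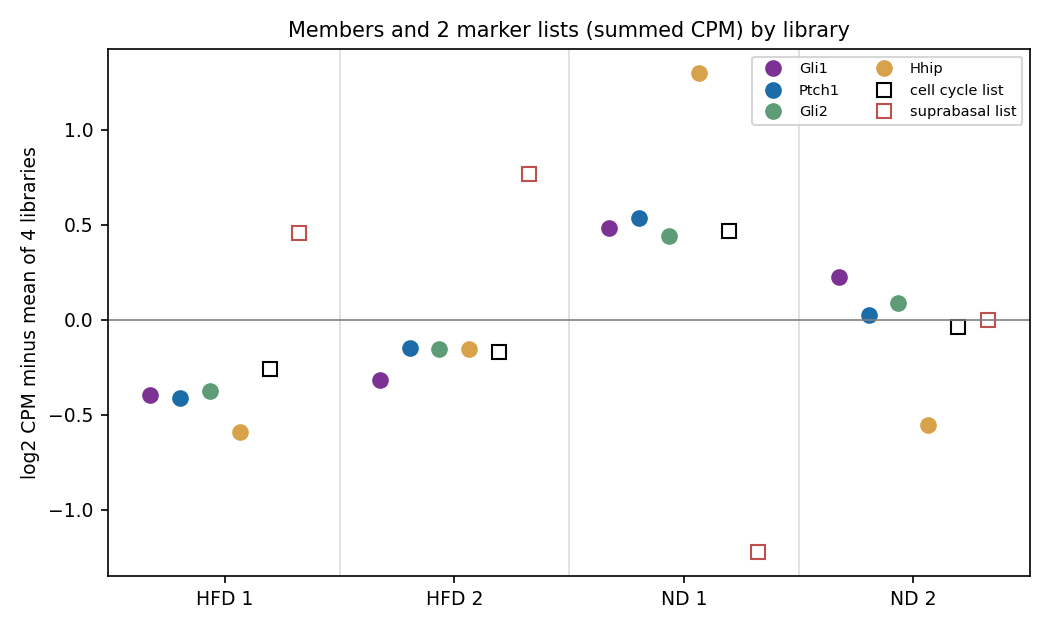
Log2 CPM minus the mean of the 4 libraries for Gli1, Ptch1, Gli2 and Hhip (filled circles) and for the summed CPM of 2 marker lists (open squares). The cell cycle list and Gli1, Ptch1 and Gli2 are highest in the first ND library, where the suprabasal list is lowest, and Hhip is high in that library alone.

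Dermal cells also respond to hedgehog. The dermal papilla markers Sox2 and Corin had 0 counts in all 4 libraries, and of 9 markers of that cell type 3 passed the filter, with 0 called (edgeR, adjusted p under 0.05) and 1 at an unadjusted p under 0.05. Its 9 markers summed to 84.1 and 59.6 CPM with HFD against 86.6 and 91.9 CPM with ND, most of it from Trps1 (named after its values were seen) at 69.1 and 50.1 CPM with HFD against 77.2 and 79.9 CPM with ND. The 9 dermal fibroblast markers summed to 114 and 104 CPM with HFD against 74.8 and 79.2 CPM with ND. Of the 8 fibroblast markers tested 0 were called (edgeR), with 2 at an unadjusted p under 0.05. Markers of immune cells summed to 53.0 and 62.0 CPM with HFD against 20.3 and 44.4 CPM with ND, of endothelium to 18.04 and 21.95 CPM with HFD against 10.7 and 12.2 CPM with ND, and of melanocytes to 36.4 and 29.3 CPM with HFD against 48.0 and 28.0 CPM with ND. The part of these cell types in the values of the 9 genes was not tested. Of 7 upper follicle genes tested 4 were called higher (Krt79, Gata6, Defb6 and Cst6) and 0 lower, against 1.12% and 0.228% of all genes tested. Each of these 4 had both HFD values above both ND values, as did 22.7% of all genes tested. Since they were picked by that call in the same libraries, this separation adds no support to it. Summed over all 8 upper follicle genes listed, the level overlapped, at 3900 and 3413 CPM with HFD against 4184 and 3289 CPM with ND. Most of this sum came from Krt17 (not called, named after its values were seen). Krt17 had 2275 and 2027 CPM with HFD against 2921 and 2144 CPM with ND.

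The calls also depended on the tool. DESeq2 called 3 of the 9 genes lower (Gli1, Ptch1 and Gli2), against 0.822% of all genes tested. EdgeR without the filter on low counts called 5 (Gli1, Ptch1, Hhip, Gli2 and Sufu), against 0.908% of 24790 genes.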

How the data were processed

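For every gene and library the authors deposited raw counts and FPKM, with exonic lengths. Tools in the submitters' processing notes are HISAT2 2.0.1, cutadapt 1.9.1 and bcl2fastq 2.17.1.14. The counter, its use of strand, and which build was used, were not given in the sources at hand. Of the 55141 identifiers found in GENCODE M21 (GRCm38), 99.4% had the same coordinates there. Deposited FPKM equalled count over length and column total within 0.005. FPKM served for levels per length and ratios.

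Deposited counts were tested in R 4.3.3 with edgeR 4.0.16 (quasi-likelihood, TMM, default filter of about 10 counts in 2 libraries and 15 in total). P-values were adjusted by Benjamini-Hochberg over the 14479 genes tested and called under 0.05. SE is the log2 fold change over the square root of F. Distances used log2 CPM with 0.5 added to counts. Alternatives used DESeq2 1.42.0, limma 3.58.1, other scalings and filters, and left out each library. The fits were tested on simulated data. Reads without molecular identifiers are not independent molecules, so the floor of 3 counts covers counting error only.

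Members and lists were chosen with earlier results of these data known. Named were all members, the called genes of the lists that are described, ligands, up to 3 pathway genes of smallest p per hedgehog list, and the 5 nearest to Gli1. Genes outside this rule are said to be named after their values were seen. One gene that the rule names is not reported here.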

Additional observations from a re-analysis of the deposited data

How the results depend on the processing

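Directions held for Gli1, Ptch1, Gli2, Smo, Sufu and Cdon under all 16 alternatives. Without the first ND library the log2 fold change of Hhip was 0.20 and that of Gli3 0.0042, and without the second HFD library that of Boc was 0.053. With 1 library left out, their lowest values were -1.66 and -0.16 without the second ND library and -0.15 without the first HFD library. Leaving out 1 library at a time gave 0 to 171 called genes, 0 called members each time, and a difference between target and other medians from -0.57 to -0.18. Across the table, edgeR called 633 genes without a count filter and 91 with equal sums of TPM, DESeq2 394, and limma on log2(FPKM + 1) or log2(FPKM + 0.1) 2. Of the 9 members these called 5, 0, 3, 0 and 0. Limma on log2(FPKM + 1) gave a median difference of -0.38. The log2 fold change of Gli1 lost its call with equal sums of TPM (-0.80) and with limma on those FPKM scales (-0.78 and -0.80), and kept it with limma voom (-0.71). Those of Ptch1 and Gli2 gained one without the filter (-0.59 and -0.55) and in DESeq2 (-0.58 and -0.54), and those of Hhip and Sufu without the filter (-1.02 and -0.68). The cause was not tested. The replicate block gave 419 called genes and 2 called members, Gli1 and Sufu (-0.68). Both members were called lower, against 0.767% of all genes tested. The labels do not pair the libraries, and same-numbered deviations correlated at 0.0015, so the numbers were not taken as pairs. Where an arm has 1 library, it is assumed to vary like the others. Counting error in the lowest library was 1.59% for Ptch1 and 10.4% for Hhip.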

Other observations

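The primary cilium carries the signal from Smoothened to the Gli factors. Of 25 cilium genes tested, 0 were called by edgeR at an adjusted p under 0.05, with 1 at an unadjusted p under 0.05. A negative log2 fold change was found for 15 of them, against 49.9% of all genes tested, with a median of -0.10. The gene at an unadjusted p under 0.05 was Ift57, a subunit of intraflagellar transport, at 16.5 and 18.5 CPM with HFD against 25.8 and 24.4 CPM with ND (log2 fold change -0.52 ± 0.23, SE; edgeR adjusted p = 0.359). Ift88, whose product is needed to build cilia, had 24.3 and 28.3 CPM with HFD against 31.3 and 29.1 CPM with ND. Both genes were named after their values were seen.

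Some genes overlap the members on the chromosome, and counting by strand is not stated. The antisense neighbour Arhgap9 overlaps the end of Gli1 and had 16 and 16 counts with HFD against 24 and 8 with ND. The antisense transcript Gm47200 overlaps Gli1 as well, with 0 and 0 counts with HFD against 6 and 10 with ND. Gli1 itself had 1552 and 1634 counts with HFD against 3501 and 2717 with ND.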
